A study of Mus musculus with 8 samples.

Results

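Heat shock proteins and their partners were examined in mouse cortical neurospheres, balls of neural stem cells and their offspring grown in suspension, through every array probe whose annotated gene symbol named an HSP70, HSP110, HSP90B, HSP60, HSP10 or small heat shock protein, a DNAJA, DNAJB or DNAJC cochaperone, or a subunit of the cytosolic chaperonin. The choice went by symbols, but it was made with earlier results of these data known. It gave 86 probes for 78 genes, of 21582 probes for 15094 named genes, and 52 of the genes were placed in the cytosol or nucleus, 8 in mitochondria and 13 in the endoplasmic reticulum, with 5 left without a location. The neurospheres came from the cortex at gestational day 12.5 and grew in a serum-free medium with basic fibroblast growth factor, epidermal growth factor (EGF) and leukaemia inhibitory factor (LIF). Ethanol-exposed cultures received 320 mg/dl ethanol for 5 days in that medium. They then differentiated for 3 days without ethanol, EGF and LIF, and control cultures differentiated by the same withdrawal without having met ethanol. Fibroblast growth factor stayed in the medium during differentiation in both groups. The labels give no strain. They number the replicates without saying whether each had its own culture, and p-values therefore reflect array-to-array scatter that could be purely technical.

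Each of the 8 arrays carried control and ethanol-exposed RNA together, with ethanol-exposed RNA in the dye Cy3 on replicates 1 to 4 and in Cy5 on replicates 5 to 8. The deposited log2 ratios do not say which condition or dye stood above the line. Every probe is therefore given by 2 numbers on the log2 scale. The shared part is its mean ratio over both dye orientations, and holds the ethanol effect if 1 condition was always divided by the other. The turning part is the distance of either orientation's mean from that shared part, positive where ratios were higher with ethanol in Cy5, and holds the ethanol effect if 1 dye was always divided by the other. Whichever part does not hold the ethanol effect holds differences between the dyes. Which part that is cannot be told here. Neither part's sign says whether exposed cells held more or less of a transcript, and a value of 1 in either part is a 2-fold difference. In bulk cultures fewer cells of a type and less RNA per cell cannot be told apart.

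Chaperones bind unfolded or partly folded proteins and help them reach or regain their shape. HSP70 proteins do so in cycles of ATP hydrolysis, which J-domain cochaperones of the DNAJ family start and nucleotide exchange factors end, while the ring-shaped chaperonins enclose a folding protein in a chamber. Some members, such as Hspa1a, are made mainly under stress through the transcription factor HSF1, others, such as Hspa8 and the chaperonin subunits, are made at all times, and those of the reticulum answer to the unfolded protein response. In the developing cortex HSF1 and its targets are known to respond to alcohol.

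A ratio could be computed for 16274 to 18802 probes per array, and the test took the 15345 probes that had ratios on 3 or more arrays in both orientations. Across these probes arrays correlated at 0.25 to 0.37 within the first orientation, at 0.14 to 0.33 within the second and at -0.28 to 0.07 between them. The file holds no intensities, so that cell type markers could be checked only by whether they gave ratios. All 5 neural progenitor markers sought (Nes, Sox2, Pax6, Hes5 and Fabp7) had a ratio on all 8 arrays, as did 4 of 4 oligodendrocyte, 3 of 4 astrocyte, 2 of 4 neuronal and 2 of 3 endothelial markers, whereas neither microglial marker with a probe did. Each marker gene was counted by its probe with the most ratios, and 10486 of all 21582 probes had all 8. These counts therefore do not show which cell types were present. Of the chaperone probes 68, for 63 genes, were tested, 49 of them with all 8 ratios. The other 18 had too few ratios.

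No chaperone differed past the threshold in either part. In the shared part 0 of 68 chaperone probes had an adjusted p under 0.05 (limma, smallest adjusted p = 0.145), beside 0% of all 15345 probes. In the turning part 0 of 68 passed as well (smallest adjusted p = 0.151), beside 1.56% of all probes. At an unadjusted p under 0.05 there were 13 chaperone probes in the shared part, which is 19.1% of them beside 13.9% of all probes. Of these 4 were positive (4.88% of all probes) and 9 negative (9.01% of all probes). In the turning part there were 5, which is 7.35% beside 13.8% of all probes, 4 of them positive (8.69% of all probes) and 1 negative (5.14% of all probes). These unadjusted counts fell in the shared part to 8, 7, 4, 5 and 6 without replicates 1, 3, 4, 5 and 7, which is 11.8%, 10.3%, 5.88%, 7.35% and 8.82% of them beside 11.7%, 12.3%, 12.1%, 11.7% and 10.8% of all probes. The share of chaperone probes was thus above that of all probes with 8 arrays and below it without replicate 3, 4, 5 or 7. In the turning part the counts fell to 1 and 2 without replicates 1 and 4, beside 12% and 12.1% of all probes. Sizes were ordinary too, with a median absolute shared part of 0.39 for chaperone probes and 0.44 for all probes, and a median absolute turning part of 0.31 and 0.41. The largest chaperone values were 1.91 in the shared and 1.35 in the turning part, while other probes on the same arrays reached 3.72 and 8.02.

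**Figure D1:**
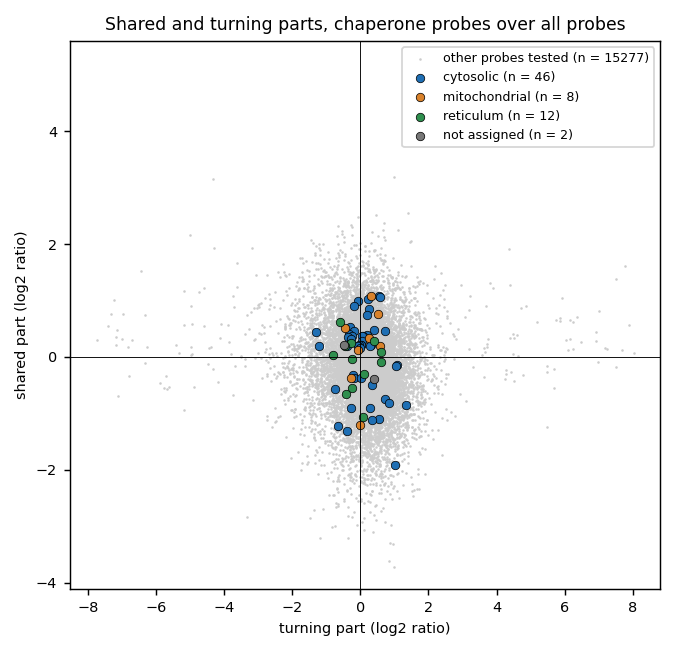
Shared part (vertical axis, log2 ratio) against turning part (horizontal axis, log2 ratio) for every tested probe, in grey for the 15277 other probes and in colour for the 46 cytosolic, 8 mitochondrial and 12 reticulum chaperone probes and the 2 of unassigned location. The chaperone probes lie inside the main cloud, at most 1.35 from 0 in the turning part, where other probes reach 8.02.

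When each gene was represented by a single probe, 40 of 63 genes had a positive shared part and 23 a negative one, with a median of 0.20. Of all probes, which were not reduced to 1 a gene, 46.1% were positive and their median was -0.06. With arrays left out singly, 34 (without replicate 6, median 0.09) to 41 (without replicate 2 or 4) of the 63 genes were positive. The median ratio of the genes was positive on 4 of 8 arrays. For the turning part the split depended on the scaling. After centring each array on its median, 33 genes were positive (56.9% of all probes) and 30 negative (median 0.01, beside 0.11 for all probes), and with the values as deposited 50 were positive and 13 negative (median 0.33, beside 0.42 for all probes). A sign of a turning part is thus to be read against that of all probes. The precision was limited: the unadjusted 95% interval of the shared part lay wholly within 1 of 0, which is a 2-fold difference either way, for 11 of 68 chaperone probes (15.1% of all probes), and that of the turning part for 11 (17.8% of all probes).

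**Figure D2:**
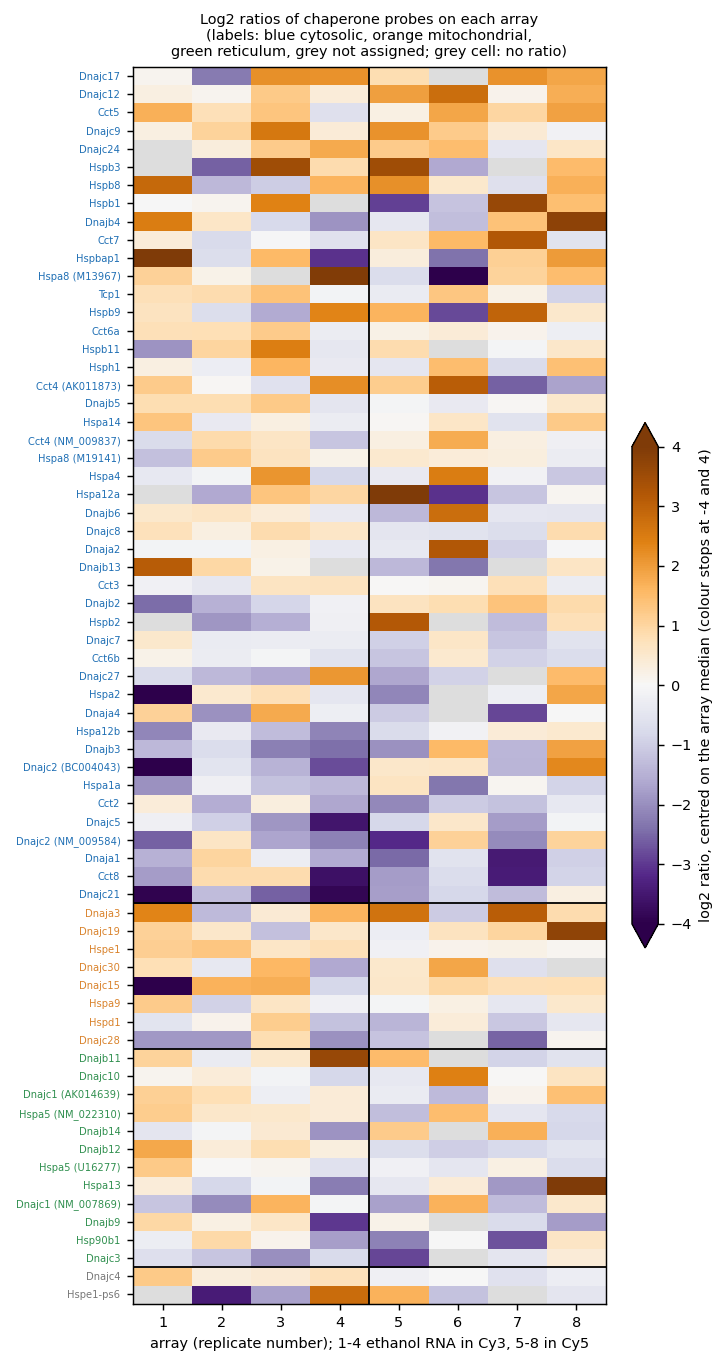
Log2 ratio of each of the 68 tested chaperone probes (rows, ordered by shared part within each location) on each array (columns, replicates 1 to 4 with ethanol in Cy3 and 5 to 8 with ethanol in Cy5), centred on the array's median. Few rows keep 1 colour across the line between the orientations: Dnajc12 alone has the same sign on all 8 arrays.

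The cytosolic HSP70 and HSP110 proteins showed no common direction, with 5 of 8 measured genes positive in the shared part (median 0.21). Hspa1a, the HSP70 made under stress, read -1.95, -0.21, -1.20 and -1.36 on replicates 1 to 4, and 0.64, -2.34, 0.09 and -0.90 on replicates 5 to 8. Its ratios lay below the array median on 6 of 8 arrays, and the orientations overlapped. The shared part was -0.90 ± 0.39 (± SE of the fit here and below, adjusted p = 0.339 with limma). The neighbouring Hspa1b encodes nearly the same protein and may hybridise to the same probe, so that the value may belong to both. Hspa8, the HSP70 present in all cells, was measured by a pair of probes. One of them (M19141) read -1.24, 1.21, 0.68 and 0.16 on replicates 1 to 4, and 0.49, 0.37, 0.30 and -0.30 on replicates 5 to 8. Its ratios stayed within 1.24 of 0, its shared part was 0.21 ± 0.33, and the 95% interval of -0.53 to 0.95 leaves out a 2-fold difference. The second (M13967) read 1.07, 0.18 and 3.96 on replicates 1, 2 and 4, and -0.69, -5.24, 1.05 and 1.49 on replicates 5 to 8. It ran from -5.24 to 3.96, its shared part was 0.44 ± 0.82, and its ratio was within 1 of the first probe's on 1 of 7 arrays. Hsph1, the HSP110 that exchanges nucleotides on HSP70 and is itself induced by heat, read 0.36 ± 0.39 in the shared and 0.06 ± 0.39 in the turning part, with ratios from -0.74 to 1.61. The atypical HSP70 gene Hspa12b, known from endothelial cells, read -2.10, -0.34, -1.30 and -2.13 on replicates 1 to 4, and -0.74, -0.13, 0.38 and 0.48 on replicates 5 to 8. All its ratios with ethanol in Cy3 were negative and those with ethanol in Cy5 straddled 0, and both parts had an unadjusted p under 0.05 without passing (shared -0.73 ± 0.32, adjusted p = 0.348; turning 0.73 ± 0.32, adjusted p = 0.35). Hspa4, Hspa14, Hspa2 and Hspa12a lay between -0.50 and 0.28 in the shared part.

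Small heat shock proteins hold unfolded proteins in solution without ATP. Of the 6 measured genes 5 were positive in the shared part (median 0.46), and none had an unadjusted p under 0.05. Hspb1, the HSP27 of stressed cells and astrocytes, read -0.01, 0.11 and 2.39 on replicates 1, 2 and 3, and -2.93, -1.19, 3.61 and 1.44 on replicates 5 to 8. Its ratios spanned both signs in the second orientation, and the shared part of 0.53 ± 0.74 had a 95% interval of -1.13 to 2.20. Hspb2, known from muscle, had ratios on 6 arrays, from -1.89 to 3.17, and a turning part of 1.04 ± 0.59 (adjusted p = 0.491). The group scattered more than the chaperonin subunits, with a median residual SD of 1.65 against 1.01. Hspb11, an intraflagellar transport protein, is counted here by its symbol and read 0.37 ± 0.51.

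Among the cytosolic J-domain cochaperones lay the members with the smallest p-values of both parts. Dnajc21, which acts in the maturation of the large ribosomal subunit, read -3.92, -1.30, -2.59 and -3.86 on replicates 1 to 4, and -1.77, -0.81, -1.31 and 0.26 on replicates 5 to 8. It was below the array median on 7 of 8 arrays and most so with ethanol in Cy3. Its shared part of -1.91 ± 0.39 was the largest of any chaperone (unadjusted p = 0.000586, adjusted p = 0.145), and its turning part was 1.00 ± 0.39 (adjusted p = 0.286). Dnajc12, a cochaperone of the aromatic amino acid hydroxylases, read 0.27, 0.09, 1.23 and 0.36 on replicates 1 to 4, and 1.94, 2.76, 0.14 and 1.74 on replicates 5 to 8. It was positive on 8 of 8 arrays, as only 1 of 68 chaperone probes was (3.57% of all probes kept 1 sign throughout), with a shared part of 1.07 ± 0.35 (adjusted p = 0.243). Dnajc9, a histone chaperone of dividing cells, was positive on 7 of 8 arrays, from -0.14 to 2.58, with a shared part of 0.99 ± 0.38 (adjusted p = 0.299). Dnajc24, which acts in the synthesis of diphthamide on elongation factor 2, was positive on 6 of 7 arrays at 0.90 ± 0.37 (adjusted p = 0.33).

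On the negative side of the shared part, Dnaja1, the main J-domain partner of Hspa8, read -1.47, 1.03, -0.26 and -1.59 on replicates 1 to 4, and -2.49, -0.55, -3.45 and -0.95 on replicates 5 to 8. It lay below the array median on 7 of 8 arrays, with replicate 2 as the exception, and its shared part was -1.22 ± 0.43 (adjusted p = 0.268). Dnajc5, the cysteine string protein of synaptic vesicles, was also negative on 7 of 8 arrays, from -3.53 to 0.55, at -1.10 ± 0.42 (adjusted p = 0.302). Dnajc2, which binds the ribosome and receives the nascent chain, had a pair of tested probes. The probe BC004043 read -0.85 ± 0.49 in the shared and 1.35 ± 0.49 in the turning part, and NM_009584 read -1.11 ± 0.56 and 0.34 ± 0.56. They had the same sign on 6 of 8 arrays and none of these values passed (lowest adjusted p = 0.253). A further Dnajc2 probe, NM_009583, had too few ratios to be tested, and all of them were positive. It read 1.09, 1.31 and 0.79 on replicates 1, 2 and 4, and 2.82 on replicate 5. Of the 10 measured cytosolic DNAJC genes, 3 were positive and 2 negative at an unadjusted p under 0.05 (4.88% and 9.01% of all probes), and the family median was -0.06.

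The clearest split by dye orientation among the cochaperones was that of Dnajb2, a neuronal J protein that binds ubiquitylated proteins. It read -2.44, -1.48, -0.85 and -0.17 on replicates 1 to 4, and 0.66, 0.83, 1.36 and 0.90 on replicates 5 to 8. Every ratio with ethanol in Cy3 was negative and every ratio with ethanol in Cy5 positive, so that the orientations did not overlap. The turning part was 1.09 ± 0.32 (unadjusted p = 0.00695, adjusted p = 0.151) and the shared part -0.15 ± 0.32. Orientations did not overlap for 4 of 68 chaperone probes, those of Dnajb2, Dnajb12, Dnajc4 and Hspe1, beside 10.9% of all probes. The first 3 of these had opposite signs in the orientations on every array (4.29% of all probes). Dnajc4, which has no assigned location here, read 1.24, 0.33, 0.41 and 0.74 on replicates 1 to 4, and -0.20, -0.02, -0.57 and -0.27 on replicates 5 to 8. It was positive on all arrays of the first orientation and negative on all of the second, with a turning part of -0.47 ± 0.27 (adjusted p = 0.491). Dnajb13, of the sperm flagellum, and Dnajb3, of the testis, also stood among the 10 smallest p-values of the turning part, at -1.22 ± 0.54 and 0.85 ± 0.48, and neither passed. The first of these turned from negative to 0.98 when each array's highest deposited value was kept. Among the remaining cytosolic genes Dnaja2, Dnaja4, Dnajb4, Dnajb5, Dnajc7, Dnajc8, Dnajc17, Dnajc27, Hspb3, Hspb8, Hspb9 and Hspbap1, the shared part ran from -0.57 for Dnaja4 to 1.07 for Dnajc17, and none had an unadjusted p under 0.05. The 95% intervals of Dnajb5, Dnajc7 and Dnajc8 left out a 2-fold difference in that part. Dnajb1, the J protein induced with HSP70 under heat stress, could not be tested: it had ratios on 3 arrays, 2.91 on replicate 3, 0.55 on replicate 6 and -1.30 on replicate 8. Elsewhere its deposited value was an exact 0 on 3 arrays and the array's highest value on 2, all taken as missing.

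The cytosolic chaperonin, also called TRiC or CCT, is a double ring of 8 different subunits that folds actin and tubulin. All 8 subunits were measured, 6 of them positive in the shared part with a median of 0.36. Since the subunits work in 1 complex, their ratios are given side by side. Cct5 read 1.72, 0.76, 1.33 and -0.60 on replicates 1 to 4, and 0.22, 1.85, 0.97 and 1.92 on replicates 5 to 8. It was positive on 7 of 8 arrays and its shared part was 1.02 ± 0.36 (adjusted p = 0.263). Cct2 read 0.35, -1.54, 0.29 and -1.65 on replicates 1 to 4, and -2.08, -1.06, -1.20 and -0.38 on replicates 5 to 8. It was negative on 6 of 8 arrays with a shared part of -0.91 ± 0.36 (adjusted p = 0.312). Cct8 read -1.78, 0.87, 0.85 and -3.65 on replicates 1 to 4, and -1.81, -0.71, -3.42 and -0.88 on replicates 5 to 8. It was negative on 6 of 8 arrays at -1.32 ± 0.55 (adjusted p = 0.329), with replicates 4 and 7 far below the others. These 3 subunits had an unadjusted p under 0.05 in the shared part, on opposite sides of 0. Of them 1 was positive (4.88% of all probes) and 2 were negative (9.01% of all probes).

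The other 5 subunits lay closer to 0. Cct3 stayed within 0.77 of 0 on every array, with a shared part of 0.16 ± 0.29 and a 95% interval of -0.49 to 0.81, which leaves out a 2-fold difference. Cct6a read 0.37 ± 0.29, Cct7 0.47 ± 0.41, Tcp1 0.40 ± 0.33, and the probes of Cct4 0.35 ± 0.61 and 0.21 ± 0.36. Cct7 read 3.19 on replicate 7, while its other ratios ran from -0.78 to 1.55. The Cct4 probes had the same sign on 4 of 8 arrays and came within 1 of each other on 2 of 8. In the turning part the subunits lay between -0.39 and 0.73, with adjusted p of 0.480 or more and a median of -0.26. With the values as deposited that median was 0.06, and Cct2, Cct3 and Cct6a changed to the positive side, at 0.05, 0.30 and 0.08. Cct6b, the testis form of a subunit, read -0.38 ± 0.30 in the shared part.

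**Figure D3:**
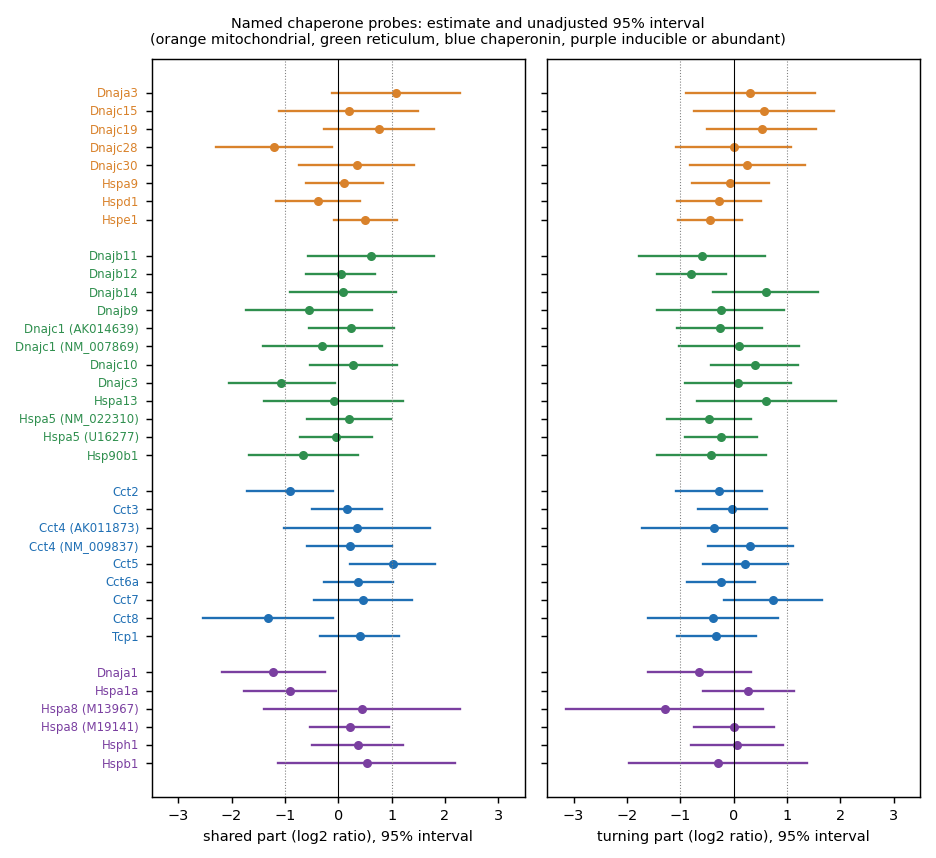
Shared part (left) and turning part (right) of the mitochondrial, reticulum, chaperonin and the inducible or abundant cytosolic chaperone probes, on a log2 scale, as points with unadjusted 95% intervals from the fit over 8 arrays. Dotted lines mark a 2-fold difference. Most intervals cross 0, and the shared part of Cct5 (0.23 to 1.82) lies opposite to those of Cct2 (-1.71 to -0.11) and Cct8 (-2.54 to -0.09).

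Mitochondrial chaperones receive proteins as they are drawn through the inner membrane. All 8 of their probes were tested, 6 were positive in the shared part (median 0.27), and none passed. Hspa9, the HSP70 of the matrix that pulls proteins in, read 1.19, -0.94, 0.61 and -0.17 on replicates 1 to 4, and -0.09, 0.22, -0.41 and 0.50 on replicates 5 to 8. Its ratios lay evenly about 0, and both the shared part of 0.12 ± 0.32 (95% interval -0.60 to 0.83) and the turning part of -0.06 ± 0.32 (95% interval -0.78 to 0.66) left out a 2-fold difference. Hspd1 and Hspe1 encode the ring and the lid of the mitochondrial chaperonin, HSP60 and HSP10. Both genes start back to back on the same stretch of DNA, at starts 216 bases apart (a second annotated start of Hspd1 lies 95 bases past that of Hspe1, where the transcripts overlap). The stretch is shown because both genes are read from it and their ratios can be compared. It runs from 130 to 31 bases before the start of Hspe1, at chr1:55088018-55088117 on the forward strand (RefSeq, GRCm38.p6). Capitals mark overlapping matches to the heat shock element, the site of HSF1, searched on both strands as GAA, any 2 bases, TTC, any 2 bases and GAA:

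Hspe1 and Hspd1: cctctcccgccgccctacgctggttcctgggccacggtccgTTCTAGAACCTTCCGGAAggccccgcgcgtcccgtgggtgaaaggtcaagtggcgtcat

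That motif was found in the 250 bases before the start for 3 of the 64 chaperone genes with a promoter in the table (82 windows), Hspd1, Hspe1 and Dnajb6. Hspd1 and Hspe1 share the stretch above. Counted by window rather than by gene, the motif was in 0.466% of all 32851 promoter windows. Hspe1 read 1.14, 1.31, 0.58 and 0.77 on replicates 1 to 4, and -0.18, 0.15, 0.20 and 0.09 on replicates 5 to 8. Every ratio with ethanol in Cy3 exceeded every ratio with ethanol in Cy5, and its residual SD was among the lowest 1% of probes, at percentile 0.73. Its shared part was 0.51 ± 0.27 (adjusted p = 0.422) and its turning part -0.44 ± 0.27 (adjusted p = 0.511). Hspd1 read -0.52, 0.14, 1.16 and -1.20 on replicates 1 to 4, and -1.44, 0.36, -1.11 and -0.41 on replicates 5 to 8. Its orientations overlapped, and its shared part was -0.38 ± 0.36 (adjusted p = 0.661). Hspe1 thus read higher than Hspd1 on 6 of 8 arrays, by 0.89 ± 0.90 (SD, n = 8) on the log2 scale (exact sign-flip test over 8 arrays, two-sided p = 0.0469, where 0.00781 is the smallest p possible). The pair was chosen after its values were seen, and the exact p rose to between 0.0625 and 0.0938 without replicate 1, 2, 4, 5, 7 or 8. Hspe1 has processed pseudogenes that its probe may also detect, and the probe of 1 of them, Hspe1-ps6, had 6 ratios from -3.41 to 2.79. Dnajb6, the third gene with the motif and a suppressor of polyglutamine aggregation, read 0.20 ± 0.44 in the shared part, where no direction was common to the 3. In the turning part all 3 were negative, at -0.44 for Hspe1, -0.27 for Hspd1 and -0.08 for Dnajb6, and none passed. With the values as deposited only Hspe1 stayed negative there, at -0.13. Hspd1 then read 0.04, and Dnajb6 was positive as well.

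The mitochondrial J proteins scattered more. Dnaja3, the main J protein of the matrix, read 2.36, -1.34, 0.41 and 1.64 on replicates 1 to 4, and 2.66, -1.03, 3.08 and 0.87 on replicates 5 to 8. It was negative on replicates 2 and 6 and positive elsewhere, with a shared part of 1.08 ± 0.54 (adjusted p = 0.401). Dnajc19 and Dnajc15, both at the import motor of the inner membrane, read 0.76 ± 0.46 and 0.19 ± 0.59. The latter had -4.08 on replicate 1 and -0.82 to 1.74 elsewhere, and without that array its shared part went from 0.19 to 0.81 and its turning part from 0.57 to -0.05. Its shared part was -0.15 without replicate 2 and -0.16 without replicate 3. Dnajc30, of the inner membrane, read 0.34 ± 0.48. Dnajc28 read -1.84, -1.86, 0.84 and -1.94 on replicates 1 to 4, and -1.19, -2.54 and 0.10 on replicates 5, 7 and 8. It was negative on 5 of 7 arrays at -1.20 ± 0.48 (adjusted p = 0.317). Among the 8 mitochondrial members it alone had an unadjusted p under 0.05 in the shared part (13.9% of all probes).

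Chaperones of the endoplasmic reticulum fold secreted and membrane proteins, and most are induced when unfolded proteins gather there. Of 13 genes 10 were measured, 6 positive and 4 negative in the shared part, with a median of 0.06. A motif of that response, the ER stress response element (CCAAT, any 9 bases, CCACG), was found on either strand in the 250 bases before the start of 3 of the 64 chaperone genes with a promoter (82 windows), Hspa5, Hsp90b1 and Dnajc3. Counted by window rather than by gene, it was in 0.113% of all 32851 windows. These stretches are shown because the 3 genes share that element and their ratios can be set side by side. Capitals mark the element, and all are from RefSeq on GRCm38.p6. The first lies at chr2:34771984-34772083 on the forward strand, the second at chr10:86705523-86705666 on the reverse strand with 2 matches, the second of them on the opposite strand, and the third at chr14:118937786-118937885 on the forward strand:

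Hspa5: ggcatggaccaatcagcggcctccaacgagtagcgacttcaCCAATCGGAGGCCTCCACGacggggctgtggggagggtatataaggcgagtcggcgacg
Hsp90b1: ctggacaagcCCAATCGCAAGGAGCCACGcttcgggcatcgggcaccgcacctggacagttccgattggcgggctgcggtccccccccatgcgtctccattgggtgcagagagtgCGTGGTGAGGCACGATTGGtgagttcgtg
Dnajc3: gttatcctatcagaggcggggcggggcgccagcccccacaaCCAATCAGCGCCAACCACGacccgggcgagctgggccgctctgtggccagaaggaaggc

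Hspa5, or BiP, the HSP70 of the reticulum and a standard marker of its stress, was measured by a pair of probes. The first (NM_022310) read 1.18, 0.56, 0.51 and 0.39 on replicates 1 to 4, and -1.27, 1.49, -0.45 and -0.79 on replicates 5 to 8. The second (U16277) read 1.24, 0.01, 0.11 and -0.57 on replicates 1 to 4, and -0.18, -0.45, 0.24 and -0.71 on replicates 5 to 8. The probes came within 1 of each other on 6 of 8 arrays, the closest of the 5 genes with a pair of tested probes, and both were high on replicate 1. Their shared parts were 0.20 ± 0.35 and -0.04 ± 0.30, with 95% intervals of -0.58 to 0.99 and -0.72 to 0.64, so that both left out a 2-fold difference. Their turning parts were -0.46 ± 0.35 and -0.24 ± 0.30, and the second became 0.08 with the values as deposited. Hsp90b1, or GRP94, the HSP90 of the reticulum, read -0.27, 0.93, 0.16 and -1.77 on replicates 1 to 4, and -2.16, -0.02, -2.75 and 0.60 on replicates 5 to 8. Replicates 4, 5 and 7 lay at or below -1.77 and the others between -0.27 and 0.93, and the shared part was -0.66 ± 0.46 (adjusted p = 0.535). Dnajc3, or p58IPK, a J protein that also restrains the kinase PERK, read -0.63, -1.15, -2.0 and -0.77 on replicates 1 to 4, and -2.86, -0.50 and 0.39 on replicates 5, 7 and 8. It was negative on 6 of 7 arrays at -1.06 ± 0.44 (unadjusted p = 0.0384, adjusted p = 0.331). The shared parts of the 3 genes with the element ran from -1.06 to 0.20, with overlapping 95% intervals. Differences between these genes were not tested, and none of the 3 passed.

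Dnajb12, a J protein of the reticulum membrane that acts in the degradation of misfolded membrane proteins, was the reticulum member that differed most between orientations. It read 1.84, 0.37, 0.83 and 0.29 on replicates 1 to 4, and -0.68, -1.0, -0.80 and -0.53 on replicates 5 to 8. All ratios with ethanol in Cy3 were positive and all with ethanol in Cy5 negative, the reverse of Dnajb2. The turning part was -0.79 ± 0.29 (unadjusted p = 0.022, adjusted p = 0.265), and the shared part was 0.04 ± 0.29 with a 95% interval of -0.61 to 0.69. Its relative Dnajb14 read 0.60 ± 0.44 in the turning part, on the other side of 0. Among the J proteins of the lumen, Dnajb11, a partner of BiP, read 0.61 ± 0.53 in the shared part, Dnajb9, which is induced by unfolded proteins, -0.55 ± 0.53, and the disulfide reductase Dnajc10 0.28 ± 0.36. The HSP70 Hspa13 read -0.09 ± 0.59 and was high on replicate 8 alone, at 3.99 against -2.24 to 0.40 elsewhere. The probes of Dnajc1, which sits at the translocon, read 0.24 ± 0.36 and -0.30 ± 0.50 and had the same sign on 2 of 8 arrays. Dnajc14, Dnajc16 and Dnajc25 had too few ratios to be tested.

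Array by array, the medians of the groups overlapped between the orientations. The 43 cytosolic genes had medians of 0.26, -0.28, 0.36 and -0.36 on replicates 1 to 4, and of -0.07, 0.45, -0.35 and 0.51 on replicates 5 to 8. The 8 mitochondrial genes had 0.92, -0.13, 0.73 and -0.49, and then -0.14, 0.36, -0.11 and 0.50. The 10 reticulum genes had 0.66, 0.31, 0.30 and -0.79, and then -0.40, 0.19, -0.62 and -0.07. Replicates 1, 3 and 6 thus had positive medians in all 3 locations, and replicates 4, 5 and 7 negative ones. The means over 4 arrays were -0.01 ± 0.36 and 0.14 ± 0.41 (SD, n = 4 each) for the cytosolic, 0.26 ± 0.68 and 0.15 ± 0.32 for the mitochondrial and 0.12 ± 0.63 and -0.23 ± 0.36 for the reticulum genes, with ethanol in Cy3 and Cy5. Every difference between the orientations was smaller than the SD within them.

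**Figure D4:**
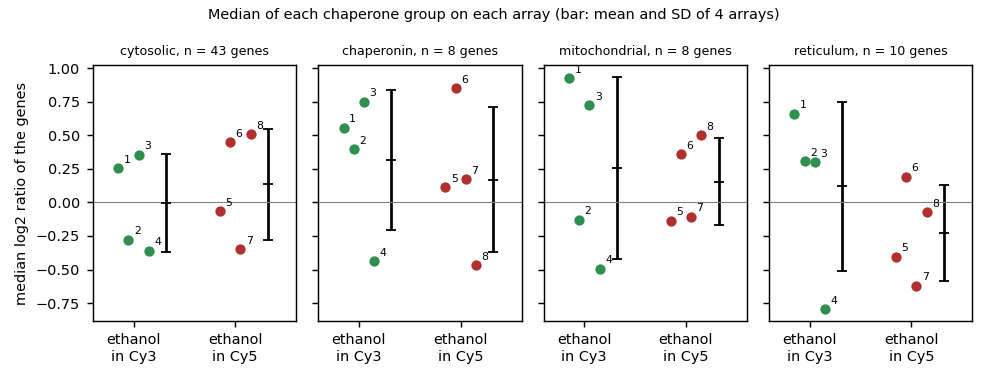
Median log2 ratio of the measured genes of the cytosolic, chaperonin ring, mitochondrial and reticulum groups (vertical axis) on each array (points, numbered by replicate), for arrays with ethanol in Cy3 and in Cy5, with the mean and SD of 4 arrays as bars. The points of both orientations overlap in every panel, and replicate 4 lies below 0 in all 4.

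Genes that work with these chaperones but lie outside the symbols chosen were looked at as a listed set of 24 cytosolic, 7 mitochondrial and 20 reticulum partners. Probes existed for 46 of them and 39 were measured, 26 positive and 13 negative in the shared part (median 0.24). None passed in the shared part. At an unadjusted p under 0.05 there were 11 of 40 partner probes, 27.5% beside 13.9% of all probes. Of these 4 were positive (4.88% of all probes) and 7 negative (9.01% of all probes). The count of 11 fell to 7, 7, 6, 5 and 7 without replicates 1, 2, 3, 7 and 8. That is 12.5% to 17.5% beside 10.8% to 14.7% of all probes. The smallest p-values on both sides belonged to mitochondrial genes. Clpx, which unfolds proteins for the matrix protease ClpP, read -1.48, -0.67, -1.61 and -2.29 on replicates 1 to 4, and -0.93, -1.16, -2.25 and -0.99 on replicates 5 to 8. It was negative on 8 of 8 arrays at -1.42 ± 0.31 (adjusted p = 0.168). Grpel1, the nucleotide exchange factor of Hspa9, read 1.11, 0.88, 0.94 and 0.68 on replicates 1 to 4, and 0.39, 0.72, 0.63 and 0.94 on replicates 5 to 8. It was positive on 8 of 8 arrays at 0.79 ± 0.26 (adjusted p = 0.251), with ratios closer together than those of Hspa9.

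Cytosolic partners divided in the same way. Pfdn5 and Vbp1, subunits of the prefoldin that hands actin and tubulin to the chaperonin, read -1.16 ± 0.40 and -1.21 ± 0.46, and the small heat shock protein Cryab read -1.14 ± 0.46. Stip1, which links HSP70 to HSP90, read 1.01 ± 0.42, and Stub1, the ubiquitin ligase of HSP70 clients, read 0.76 ± 0.32. The cyclophilin Ppid of HSP90 read -0.88 ± 0.37 in the shared and 0.87 ± 0.37 in the turning part. In the reticulum the disulfide isomerase P4hb read 0.91 ± 0.35, and the collagen chaperone Serpinh1 read -1.31 ± 0.50 on one probe and -0.39 ± 0.41 on another. Their adjusted p lay between 0.258 and 0.340, apart from the second Serpinh1 probe at 0.696, whose turning part was 1.02 ± 0.41 (adjusted p = 0.305). In the turning part 3 of 40 partner probes had an unadjusted p under 0.05, which is 7.5% beside 13.8% of all probes. Bag4, a nucleotide exchange factor of HSP70, was the 1 of 40 partner probes that passed in the turning part (1.56% of all probes). It read -0.96, -0.78 and -1.94 on replicates 2, 3 and 4, and 3.56, 2.75, 2.01 and 2.01 on replicates 5 to 8, negative in the first orientation and positive in the second. Its turning part was 1.90 ± 0.35 (limma, adjusted p = 0.0338), and the call ended without any 1 of replicates 2 to 8 (adjusted p 0.0566 to 0.129).

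The 18 chaperone probes that were not tested included those of Hspa1l, Hspa4l, Hspb7, Hspbp1, Dnajb7, Dnajb8, Dnajc5b, Dnajc6, Dnajc18 and Dnajc22, the pseudogene Hsp25-ps1 and further probes of Dnajb4, Dnajc2 and Tcp1. No probe carried the symbols of the cytosolic HSP90 genes Hsp90aa1 and Hsp90ab1 or of Hspa1b, which were not analysed here.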

How the data were processed

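Per the labels' protocols, total RNA was extracted with Trizol, purified on RNeasy columns, and 1 µg was reverse-transcribed and labelled with a Genisphere 3DNA kit. The authors deposited log2 ratios, 1 per probe and array. How arrays were scanned and normalized is not given in the sources used here. Exact zeros (2565 to 5200 per array) and each array's highest value (108 to 464 probes, a ratio of 100000) were taken as missing. Intensities are not in the file, and the number of arrays limits the precision.

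Arrays were centred on their medians. Probes with values on 3 or more arrays of each orientation were fitted with limma 3.58.1 (R 4.3.3; lmFit, eBayes) for the shared and turning parts, checked on simulated data, with Benjamini-Hochberg adjustment over 15345 probes at 0.05. A gene's probe with the most values stood for it in counts and medians. Symbols were updated by Entrez number through RefSeq's GRCm38.p6 table, which matched all 86 chaperone probes. The chaperones, lists and naming rule were chosen with earlier results of these data known. Named are the 10 smallest p-values of each part, all mitochondrial, reticulum and chaperonin members, and the inducible or abundant cytosolic ones. Of partners, at most 10 a part with an unadjusted p under 0.05 are named. The orientations share no replicate number, and the array codes share numbers for 3 pairs, whose deviations correlated at 0.01, -0.02 and 0.04.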

Additional observations from a re-analysis of the deposited data

Results flagged for a closer look

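Of 83 sets of 4 ratios of 1 named chaperone probe in 1 orientation, 1 held an array that stood apart from the other 3 by more than Dixon's 95% critical value, where chance gives about 1 in 20. It was Dnajc28 with ethanol in Cy3, where replicate 3 read 0.84 against -1.94 to -1.84 on replicates 1, 2 and 4.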

How the results depend on the processing

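No chaperone probe passed in either part under any of 19 alternative fits: arrays not centred or scaled to 1 spread, other rules for missing values, a robust variance model, array weights, the code number as a block, and arrays left out singly or, for the arrays with an r in their code, together. The smallest adjusted p was 0.0897 in the shared part, for Dnajc21 on probes with all 8 values, and 0.0533 in the turning part, for Dnajb2 with the values as deposited. Counts of chaperone probes at an unadjusted p under 0.05 ranged from 4 to 14 in the shared and from 1 to 7 in the turning part, lowest in the shared part without replicate 4 or without the r arrays and in the turning part without replicate 1. With the code number as a replicate block 0 passed in either part, and 13 and 5 had an unadjusted p under 0.05, as without the block. Medians moved by less than the SD of the array medians: the shared part of cytosolic genes ranged from 0.04 to 0.27, of mitochondrial genes from 0.07 to 0.40 and of reticulum genes from -0.04 to 0.19, the turning part from -0.06 to 0.36, from -0.08 to 0.43 and from -0.42 to 0.07. Signs of values that had not passed changed by over 1 SE in 15 of 2242 values. Not centring gave turning parts of 0.295 for Cct3, 0.0768 for Cct6a, 0.0816 for an Hspa5 probe and 0.20 for Grpel1. Without the r arrays the turning parts were 0.29 for Cct3, -0.17 for Dnajc19, -0.40 for Dnajc3, -0.0504 for Dnajc5, 0.30 for Dnajc9, -0.20 for Hspa13 and -0.48 for a Serpinh1 probe, and the shared parts 0.16 for Dnajb9 and -0.50 for an Hspa8 probe. Keeping each array's highest value gave 0.98 for Dnajb13, and leaving out replicate 1 gave -0.0485 for Dnajc15, the lowest of -0.0485 to 0.922 over arrays left out singly. Bag4 lost its call under 10 of 17 alternatives (adjusted p 0.0152 to 0.129 over all of them). The exact p of Hspe1 against Hspd1 was 0.125 without the r arrays, where too few arrays remained for it to fall under 0.05. With arrays scaled to 1 spread it was 0.0469, and both were tried after seeing the data. The cause of these changes was not tested.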
